A study of Gallus gallus with 6 samples.

Results

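The genes described here are the bone morphogenetic protein (BMP), growth differentiation factor (GDF) and activin genes of the chicken feather follicle. They were chosen by name: the records of BMP4, NOG, INHBA and GDF10 (LOC423776 in the tables), and every other record described as a bone morphogenetic protein that is not a receptor, provided that some library held at least 20 reads of it. Of 10964 transcript records, 9 matched and 6 were kept: BMP4 (NM_205237.1), BMP7 (XM_417496.2), BMP2 (NM_204358.1), GDF10 (XM_421648.2), INHBA (NM_205396.1) and NOG (NM_204123.1). BMP2 and NOG lay just inside the minimum, with at most 29 and 35 reads in a library. BMP5 lay just outside it with at most 11 reads, and BMP1 and BMP15 reached 8 and 4.

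The study sequenced total RNA from parts of the feather follicle, to examine gene expression in the dermal papilla in the growth and resting phases and during regeneration. At the growth phase 1 library each came from the dermal papilla, a mesenchymal cluster at the follicle base, from the feather epithelium, and from the pulp, the mesenchymal core of the growing feather. A further library was made from resting-phase dermal papilla, and the others from regenerating feather follicles, taken 2 and 4 days after a wound. The regenerating samples were labelled as follicle, not as papilla, so a follicle library set against a resting papilla library compares different dissections as well as different phases. Strain, sex, age, bird numbers and pooling were not given in the sources used here. With 1 library per group, the differences below have no replicate check and no p-value is given. The intervals cover counting error only. Reads are not independent molecules, so even these may be too narrow.

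BMPs, GDFs and activins are secreted dimers of the TGF-beta superfamily. They bind pairs of type I and type II receptor kinases, which phosphorylate SMAD transcription factors. Noggin, encoded by NOG, binds BMPs outside the cell and keeps them from their receptors, while follistatin does the same mainly to activins. In the chicken feather BMP4 is known to favour the formation of the rachis, the central shaft, and noggin to favour branching into barbs.

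Library totals ranged from 3269376 to 6064791 reads, of which 40.0% to 44.5% stood in the listed records. Records with fewer than 2 reads in a library are not listed for it. An unlisted record was taken to hold 0 or 1 reads, and a fold against it is a lower bound set at 3 reads in that library. The epithelium table held all 8 epithelial marker genes found, whose levels summed to 2268 CPM (counts per 1000000 reads, scaled between libraries), and 97.8 CPM of mesenchymal markers with COL1A1 and PDGFRA unlisted. The pulp and both papilla libraries held 3944 to 5071 CPM of mesenchymal markers, with PDGFRA unlisted in each. All 8 epithelial markers were also listed in both papilla libraries, and they summed to 711 CPM in the growth-phase papilla, 840.3 CPM in the resting papilla and 105 CPM in the pulp, where CLDN1 and DSP were unlisted. KRT14, a keratin of basal epithelium, made up 616 CPM of that sum in the growth-phase papilla and 450 CPM in the resting papilla. In the regenerating follicles they summed to 1459 CPM on day 2 and 1120 CPM on day 4, of which KRT14 was 1051 and 623 CPM, beside 5527 and 4751 CPM of mesenchymal markers. In such bulk samples fewer cells of a type and less RNA per cell cannot be told apart.

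BMP4, a BMP known from feather mesenchyme, was abundant in every library except the epithelium. It had 875 reads in the growth-phase papilla, 9 in epithelium, 819 in pulp, 494 in resting papilla, 779 on day 2 and 1021 on day 4. After scaling, its level was 257 CPM (241 to 275) in the growth-phase papilla, 2.16 (0.987 to 4.10) in the epithelium, 141 (131 to 151) in the pulp, 136 (124 to 148) in the resting papilla, 212 (197 to 227) on day 2 and 259 (244 to 276) on day 4. The day 4 follicle and the growth-phase papilla stood highest and lay within counting error of each other (ratio 1.01, 0.919 to 1.10), or 1.18-fold (1.08 to 1.29) apart with library totals only. The day 2 follicle followed, lower than the growth-phase papilla by 1.21-fold (1.10 to 1.34), a step of 1.08-fold (0.977 to 1.19) under that same scaling. Pulp came next, 1.51-fold (1.36 to 1.66) below day 2, and then the resting papilla. These last were not separated from each other (ratio 1.04, 0.927 to 1.16, or 0.978 with library totals only). The epithelium lay 62.9-fold (32.9 to 138) below the resting papilla.

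BMP7, another BMP, which can pair with BMP4 in a heterodimer, had its highest level in the growth-phase papilla alone. Its reads were 380 there, 106 in epithelium, 158 in pulp, 120 in resting papilla, 108 on day 2 and 143 on day 4. This gave 112 CPM (101 to 124) in the growth-phase papilla and 25.4 to 36.3 CPM in the other 5 libraries. The growth-phase papilla lay 3.08-fold (2.53 to 3.76) above the next library, the day 4 follicle. Below it, no neighbours in the order day 4, resting papilla, day 2, pulp and epithelium differed beyond counting error. The ends of this order, 36.3 CPM (30.6 to 42.8) on day 4 and 25.4 CPM (20.8 to 30.7) in the epithelium, were not compared directly. The last step of the order, pulp over epithelium, was 1.59-fold (1.24 to 2.05) with library totals only and turned to 0.994 with upper-quartile scaling.

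BMP2, a close relative of BMP4, was scarce. It had 6 reads in the growth-phase papilla, 6 in epithelium, 29 in pulp, 4 in resting papilla and 2 in each follicle library. Pulp, at 4.99 CPM (3.34 to 7.16), lay 2.83-fold (1.15 to 8.32) above the growth-phase papilla, and no neighbours among the other 5 libraries could be separated at this depth.

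GDF10, also called BMP3B and a divergent member of the BMP family, was a pulp transcript in these libraries. It had 1399 reads in the pulp against 19 in growth-phase papilla, 4 in epithelium, 29 in resting papilla, 27 on day 2 and 18 on day 4. Its level of 241 CPM (228 to 254) in the pulp was 30.2-fold (20.9 to 45.3) above that of the next library, the resting papilla. The papilla and follicle libraries, at 4.57 to 7.97 CPM, were not separated between neighbours, and the epithelium, at 0.959 CPM (0.261 to 2.46), lay 4.77-fold (1.57 to 19.4) below the day 4 follicle.

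INHBA encodes the beta A subunit of activin A, which signals through SMAD2 and SMAD3, unlike the BMPs. It had 23 reads in the growth-phase papilla, 204 in pulp, 100 in resting papilla, 43 on day 2 and 10 on day 4, and it was unlisted in the epithelium. Its levels took 1 order: 35.1 CPM (30.4 to 40.2) in the pulp, 27.5 (22.4 to 33.4) in the resting papilla, 11.7 (8.47 to 15.8) on day 2, 6.77 (4.29 to 10.2) in the growth-phase papilla and 2.54 (1.22 to 4.67) on day 4. Every listed neighbour in this order differed beyond counting error, the first pair narrowly (ratio 1.28, 1.0004 to 1.64). That first pair was no longer separated with upper-quartile scaling or library totals only.

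NOG was listed in both papilla libraries and the day 4 follicle only. It had 23 reads in the growth-phase papilla, 35 in resting papilla and 4 on day 4, and was unlisted in the epithelium, the pulp and the day 2 follicle. The papilla levels, 6.77 CPM (4.29 to 10.2) in growth and 9.62 CPM (6.70 to 13.4) at rest, were not separated (resting over growth 1.42, 0.816 to 2.52). The growth-phase papilla lay 6.66-fold (2.28 to 26.5) above the day 4 follicle, whose level was 1.02 CPM (0.277 to 2.60). In the unlisted libraries 3 reads would correspond to 0.719 CPM in the epithelium, 0.516 CPM in the pulp and 0.817 CPM on day 2.

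A further noggin record, NOG2 (LOC427689), is described in the tables as noggin2 and was looked up after the values of NOG had been seen. It had more reads than NOG in every library that listed it: 157 in growth-phase papilla, 106 in pulp, 161 in resting papilla, 129 on day 2 and 158 on day 4. It too was unlisted in the epithelium. Unlike NOG it was listed on day 2 and in the pulp, and its levels of 35.1 to 46.2 CPM in the papilla and follicle libraries were not separated between neighbours. The ends of that range, 46.2 CPM (39.3 to 54.0) in the growth-phase papilla and 35.1 CPM (29.3 to 41.7) on day 2, were not compared directly. The pulp, at 18.2 CPM (14.9 to 22.1), lay 1.93-fold (1.48 to 2.51) below day 2. Transcript lengths were not used here, so levels of different genes are not ranked against each other.

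**Figure D1:**
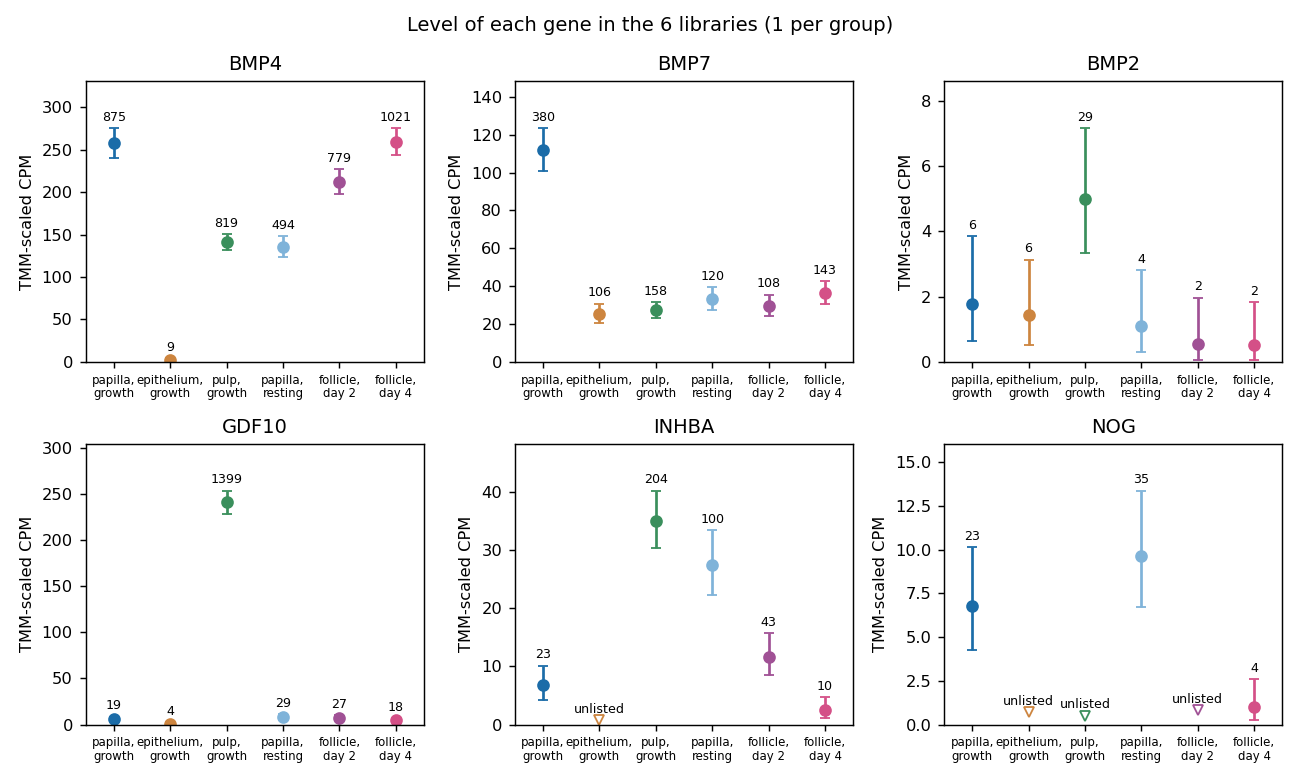
Level of each of the 6 genes in TMM-scaled CPM (vertical axis, linear, from 0) in each library (horizontal axis). Points are single libraries, bars exact 95% Poisson intervals for counting error, numbers the reads, and open triangles the level of 3 reads where a record was unlisted. BMP7 stands at 112 CPM in the growth-phase papilla and GDF10 at 241 CPM in the pulp, each well above the other 5 libraries.

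Pairs of libraries were then compared. A record counted as higher or lower when the ratio of its scaled CPM, with 1 added to each, reached 2-fold, among records with at least 20 reads in a library of the pair. A gene listed only where it is high passes this read minimum through that library and so had to differ. INHBA and NOG did so against the epithelium, and NOG in growth-phase papilla over pulp and in day 2 over rest. A gene that reached 20 reads in only 1 library of a pair was likewise favoured to be higher there, as BMP2 and GDF10 were in the pulp. The same held for BMP4 against the epithelium. Counts of genes past 2-fold are therefore set beside the share of all records past it, and folds of single genes are given without the added 1. The comparisons share libraries and are not independent of one another.

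The growth-phase papilla was set first against the growth-phase epithelium, the tissue that builds the feather. BMP4 was 119-fold (62.6 to 262) higher in the papilla, the 22nd highest of 6362 records. BMP7 was 4.40-fold (3.54 to 5.51) higher, and INHBA and NOG, unlisted in the epithelium, were each at least 9.41-fold higher. All 4 genes with enough reads were thus at least 2-fold higher, while 25.0% of all records were higher and 22.7% lower. With library totals only, 35.1% of records were higher and 13.5% lower, and the median over all records moved from -0.05 to 0.45 in log2 units. GDF10 and BMP2 fell under the read minimum, with ratios of 5.83 (1.94 to 23.6) and 1.23 (0.328 to 4.59). NOG2 was at least 64.2-fold higher. Mesenchymal marker genes summed to 5071 CPM in the papilla and 97.8 CPM in the epithelium, and smooth muscle markers to 13095 and 147 CPM with DES unlisted in the epithelium. Their part in these differences was not tested.

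The growth-phase papilla and the growth-phase pulp are both mesenchymal, and here the genes went both ways. GDF10 was 43.0-fold (27.5 to 71.7) lower in the papilla, the 6th lowest of 6667 records, and INHBA was 5.18-fold (3.36 to 8.36) lower. BMP7 was 4.11-fold (3.41 to 4.98) higher in the papilla, BMP4 1.83-fold (1.66 to 2.01) higher, and NOG at least 13.1-fold higher. BMP2 was 2.83-fold (1.15 to 8.32) lower, a call that ended with a pseudocount of 5. In all, 2 of 6 were at least 2-fold higher and 3 lower, against 14.7% and 19.1% of all records, and BMP4 was within 2-fold. NOG2 was 2.53-fold (1.97 to 3.27) higher. Leukocyte markers summed to 272 CPM in the papilla, with PTPRC unlisted, and 1342 CPM in the pulp, erythroid markers to 188 and 1812 CPM, and smooth muscle markers to 13095 and 318 CPM. Epithelial markers summed to 711 and 105 CPM, with 6 of 6 at least 2-fold higher in the papilla (median log2 ratio 1.97). Their part in these differences was not tested.

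Pulp against epithelium gave the widest separation for GDF10, which was 251-fold (97.8 to 922) higher in the pulp and the 19th highest of 6851 records. BMP4 was 65.3-fold (34.2 to 143) higher, INHBA at least 48.8-fold, and BMP2 3.47-fold (1.41 to 10.2), the last again ended as a call by a pseudocount of 5. BMP7 lay within counting error of equal levels (ratio 1.07, 0.831 to 1.38). NOG, unlisted in both, has no ratio, and NOG2 was at least 25.3-fold higher. Thus 2-fold was reached by 4 of 5 genes, all higher in the pulp, in a pair where 47.1% of all records were 2-fold apart, 26.7% higher and 20.4% lower. In this pair BMP2, like BMP4, GDF10 and INHBA, reached 20 reads in the pulp alone. With library totals only these shares were 38.3% and 11.1%, and the median log2 ratio over all records was 0.61, not 0.08. Leukocyte markers summed to 1342 CPM in pulp and 27.6 CPM in epithelium, and mesenchymal markers to 3944 and 97.8 CPM. Their part in these differences was not tested.

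Between the growth-phase and the resting papilla, 1 ligand was higher in growth and another lower. BMP7 was 3.39-fold (2.75 to 4.20) higher in the growth phase, the 96th highest of 5957 records, and INHBA was 4.06-fold (2.56 to 6.70) lower, the 95th lowest. BMP4 was 1.90-fold (1.70 to 2.12) higher, short of 2-fold. GDF10 (ratio 0.702, 0.372 to 1.29), NOG (0.704, 0.397 to 1.23) and NOG2 (1.04, 0.833 to 1.31) did not differ beyond counting error. So 1 of 5 genes was at least 2-fold higher and 1 lower, beside 9.35% and 7.97% of all records, or 7.40% and 10.5% with library totals only, where the median over all records was -0.13 in place of -0.02 on the log2 scale. Smooth muscle markers summed to 13095 CPM in growth and 5020.0 CPM at rest, and cornification genes of keratinocytes to 41.2 and 719 CPM. Erythroid markers summed to 188 and 38.2 CPM, with 3 of 3 at least 2-fold higher in growth (median log2 ratio 1.72). Of the epithelial markers, 5 of 7 were at least 2-fold lower in growth and 0 higher (median log2 ratio -1.52), with EPCAM, an epithelial adhesion gene, at 15.9 CPM in growth and 112 CPM at rest. Their part in these differences was not tested.

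The regenerating follicles were compared with the resting papilla. On day 2 NOG, with 35 reads in the resting papilla, was unlisted and at least 11.8-fold lower, the 5th lowest of 6013 records, and INHBA was 2.35-fold (1.63 to 3.44) lower. BMP4 was 1.56-fold (1.39 to 1.75) higher. BMP7 (ratio 0.891, 0.681 to 1.17), GDF10 (0.922, 0.525 to 1.61) and NOG2 (0.794, 0.625 to 1.01) did not differ beyond counting error. That made 2 of 5 lower and 0 higher, beside 6.00% and 7.03% of all records. NOG passed the read minimum through the resting papilla alone and, unlisted on day 2, could only be called lower. The INHBA difference was past 2-fold narrowly, with a log2 ratio of -1.16 that became -0.96 with a pseudocount of 5.

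On day 4 INHBA was 10.8-fold (5.65 to 23.3) lower than in the resting papilla, the 10th lowest of 6090 records, and NOG was 9.47-fold (3.39 to 36.7) lower. BMP4 was 1.91-fold (1.71 to 2.13) higher and passed 2-fold with library totals only, at a log2 ratio of 1.03. BMP7 (1.10, 0.858 to 1.42), GDF10 (0.573, 0.300 to 1.07) and NOG2 (0.907, 0.723 to 1.14) did not differ beyond counting error. Again 2 of 5 were lower and 0 higher, beside 6.90% and 8.23% of all records, or 5.65% and 10.3% with library totals only. Both INHBA, with 10 reads on day 4, and NOG, with 4, passed the read minimum through the resting papilla alone. They were thus favoured to be called lower. Smooth muscle markers summed to 5020.0 CPM in the resting papilla, 1228 CPM on day 2 and 1442 CPM on day 4, with 4 of 5 at least 2-fold lower on day 2 and 3 of 5 on day 4. Erythroid markers summed to 38.2, 428 and 453 CPM, with 3 of 3 higher on each day (median log2 ratio 3.42 and 3.52), and leukocyte markers to 287, 454 and 472 CPM, with 1 of 3 higher on day 2 and 3 of 4 on day 4. The epithelial sums given above were higher in the follicles, mainly through KRT14 and PERP, but the median log2 ratio of that list was 0.01 on day 2 and 0.03 on day 4, and EPCAM was lower, at 57.2 and 65.2 CPM. The part of these markers in these differences was not tested.

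Between the follicles themselves, INHBA was 4.61-fold (2.28 to 10.3) lower on day 4 than on day 2, the 29th lowest of 6048 records. BMP4 was 1.22-fold (1.11 to 1.34) higher, and BMP7 (1.24, 0.955 to 1.60), GDF10 (0.622, 0.323 to 1.17) and NOG2 (1.14, 0.900 to 1.45) did not differ beyond counting error. NOG had too few reads for this pair. INHBA was the 1 gene of 4 past 2-fold, beside 7.61% of all records 2-fold apart, 3.84% lower and 3.77% higher. With 10 reads on day 4 and 43 on day 2, INHBA passed the read minimum through day 2 alone. It was thus favoured to be lower on day 4.

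**Figure D2:**
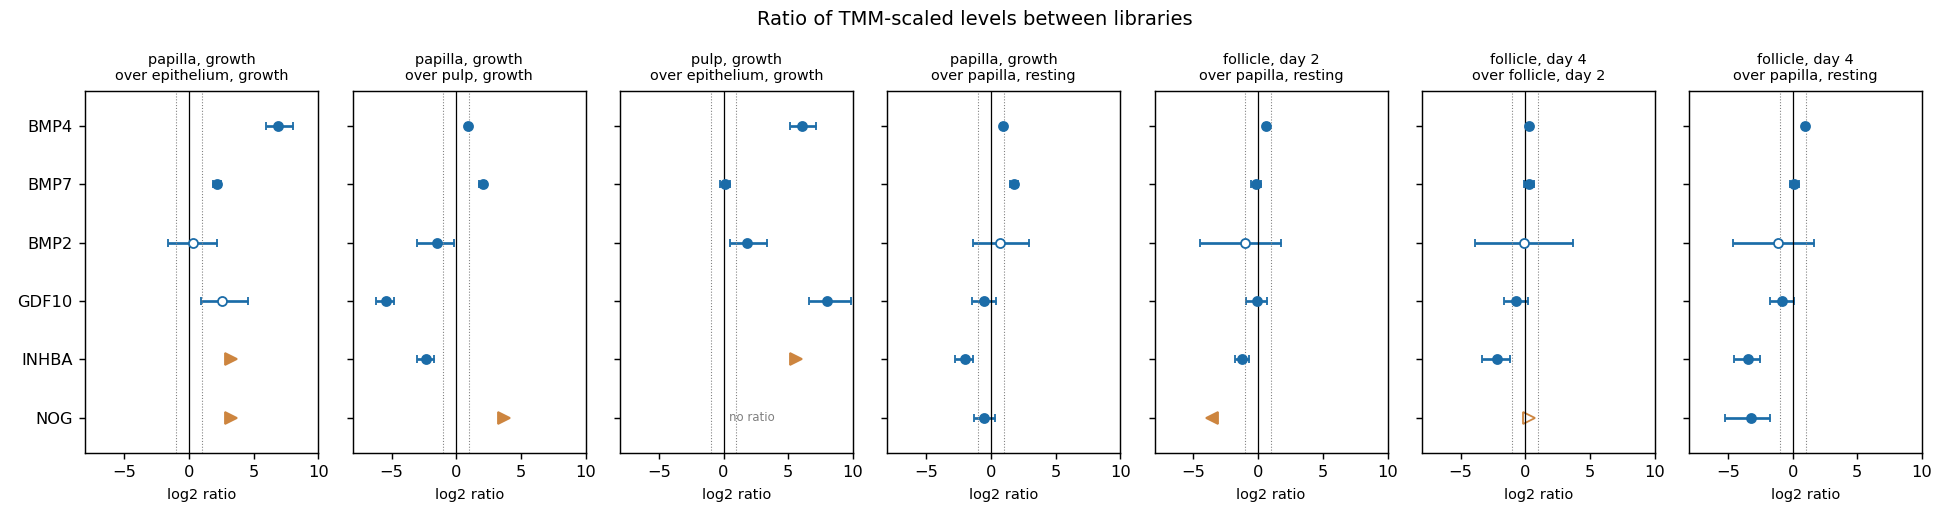
Log2 ratio of scaled counts for the 6 genes in the 7 pairs of libraries (1 panel each). Bars are exact 95% intervals for counting error, orange triangles lower bounds where 1 library of the pair did not list the record, open symbols genes under 20 reads in both libraries, and dotted lines 2-fold. INHBA lies left of 0 in each of the 5 pairs with no epithelium, while GDF10 is within 2-fold in pairs without the pulp or the epithelium.

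Ratios of genes within a library do not depend on the scaling between libraries. They were computed after the values had been seen, as reads per 100 reads of BMP4. BMP7 stood at 43.4 (38.4 to 49.0) in the growth-phase papilla, 19.3 in pulp, 24.3 in resting papilla, 13.9 on day 2 and 14.0 on day 4. In the epithelium, where BMP4 had 9 reads, it stood at 1178 (598 to 2646). The growth-phase papilla thus carried 1.79-fold (1.41 to 2.28) more BMP7 per BMP4 than the resting papilla and 2.25-fold (1.82 to 2.79) more than the pulp. In the follicles BMP7 per BMP4 was 0.571 (0.425 to 0.765) of the resting value on day 2 and 0.577 (0.439 to 0.759) on day 4, which the BMP7 level alone did not show.

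INHBA per 100 BMP4 reads was 24.9 in pulp and 20.2 in resting papilla, against 5.52 on day 2, 2.63 in growth-phase papilla and 0.979 on day 4. Relative to BMP4 it was 20.6-fold (10.6 to 44.7) lower on day 4, and 7.69-fold (4.78 to 12.9) lower in the growth-phase papilla, than in the resting papilla. NOG per 100 BMP4 reads was 7.09 at rest, 2.63 in growth and 0.392 on day 4. The first step was 2.69-fold (1.53 to 4.83), and day 4 lay 18.1-fold (6.40 to 70.3) below rest.

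NOG2 per 100 BMP4 reads was 32.6 (27.1 to 39.0) in the resting papilla and 12.9 to 17.9 in the other 4 libraries that listed it. It was lower than at rest by 1.82-fold (1.41 to 2.34) in the growth-phase papilla, 1.97-fold (1.51 to 2.57) on day 2 and 2.11-fold (1.64 to 2.71) on day 4. Noggin reads per BMP4 read were thus highest at rest for both noggin records among the papilla and follicle libraries. The level of NOG2 itself did not differ from rest beyond counting error in growth (ratio 1.04), on day 2 (0.794) or on day 4 (0.907). BMP4, the divisor, was lowest at rest among these libraries, at 136 CPM, which raises the ratio of every gene there. GDF10 per 100 BMP4 reads was 171 in pulp and 1.76 to 5.87 in the papilla and follicle libraries.

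**Figure D3:**
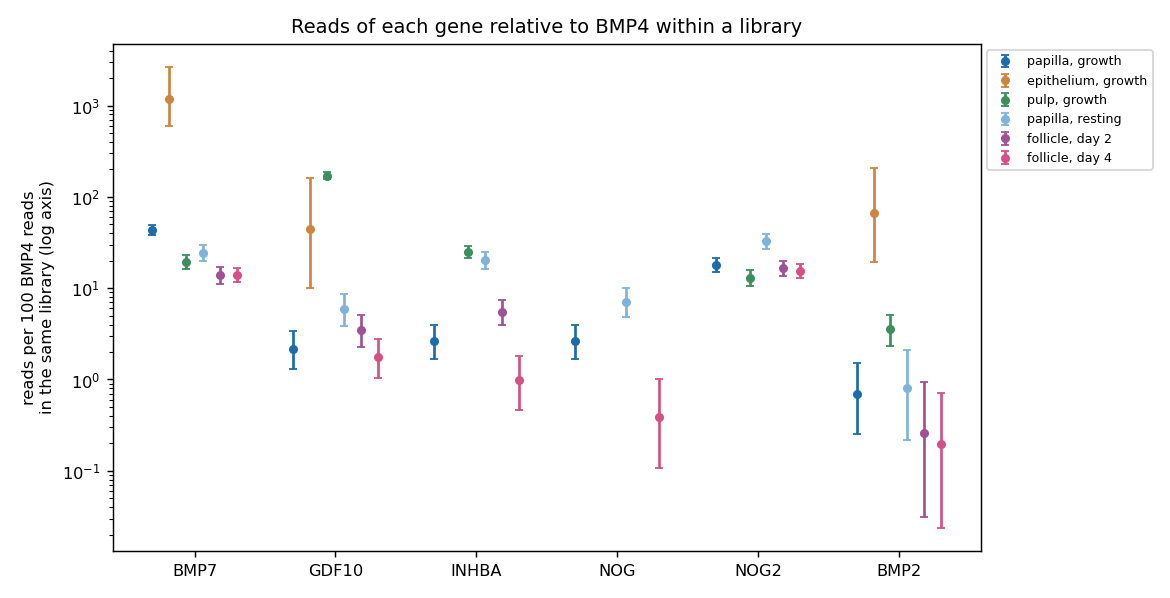
Reads of each gene per 100 BMP4 reads in the same library (vertical log axis), with exact 95% intervals for counting error. Each point is 1 library, and libraries that did not list a gene have no point. The resting papilla (light blue) is highest of the papilla and follicle libraries for GDF10, INHBA, NOG and NOG2, and the growth-phase papilla (dark blue) for BMP7. BMP4 itself was lowest at rest among these libraries, at 136 CPM.

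The other genes of the pathway were read from 6 lists, chosen with earlier results of these data known. Members of the family described above are counted in them, and SMAD6, SMAD7, BAMBI, SKIL, LTBP2 and FST stand in more than 1 list. As above, each count is to be read beside the share of all records past 2-fold in that pair, which is given again below. A member that reached 20 reads in only 1 library of a pair was favoured to be higher there, whether or not it is named below. Of 30 TGF-beta family ligands, 16 were found, and 6 to 10 had enough reads in a pair. Against the epithelium, 3 of 6 were higher in the growth-phase papilla, beside 25.0% of all records, and 1 lower, beside 22.7%. The lower one was BMP8A (LOC771058), a BMP described in the tables only as a hypothetical protein. It had 119 reads in the epithelium and was unlisted in the papilla, at least 32.3-fold lower. BMP8A and INHBA, each unlisted in 1 library of this pair, passed the read minimum through the other library alone and so had to differ. BMP4, with 9 reads in the epithelium, passed it through the papilla alone. Against the pulp, 2 of 9 were higher and 5 lower, beside 14.7% and 19.1% of all records (median log2 ratio -1.11, beside -0.09). GDF2, also called BMP9 and known from mammals as a circulating ligand of endothelium, had 244 reads in the pulp, 2 in growth-phase papilla, none listed in the epithelium, 3 in resting papilla, 9 on day 2 and 3 on day 4. It was 71.3-fold (19.5 to 592) lower in the growth-phase papilla than in the pulp. Endothelial markers summed to 246 CPM in the growth-phase papilla, 307 CPM in the pulp and 16.3 CPM in the epithelium. PECAM1 alone made up 128 CPM of that sum in the papilla and 98.7 CPM in the pulp. In papilla over pulp 0 of 6 endothelial markers were at least 2-fold higher and 1 lower (median log2 ratio -0.83). Their part in the GDF2 difference was not tested. GDF3 had 89 reads in the pulp and was 13.0-fold (4.91 to 48.8) lower in the growth-phase papilla. In this pair BMP2, GDF2, GDF3 and GDF10 reached 20 reads in the pulp alone and were favoured to be lower in the papilla. TGFB2 reached it in the papilla alone and was favoured to be higher there. Between pulp and epithelium 6 of 10 ligands were higher in the pulp and 2 lower, beside 26.7% and 20.4% of all records. INHBA and GDF2, unlisted in the epithelium, passed the read minimum through the pulp alone and so had to be higher there. BMP4, GDF10, BMP2 and GDF3, with 9, 4, 6 and 9 reads in the epithelium, also passed it through the pulp alone. BMP8A and TGFB2, with 5 and 13 reads in the pulp, passed it through the epithelium alone and were favoured to be lower in the pulp.

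Growth against rest gave 1 of 6 ligands higher and 2 lower, beside 9.35% and 7.97% of all records. The lower ones were INHBA and TGFB2, a TGF-beta that was 2.89-fold (2.03 to 4.20) lower in growth. TGFB2 had 42 reads in the growth-phase papilla, 26 in epithelium, 13 in pulp, 130 in resting papilla, 123 on day 2 and 59 on day 4. In the day 2 follicle 1 of 6 ligands was lower than at rest, beside 6.00% of all records. On day 4, TGFB2 was 2.38-fold (1.74 to 3.30) lower than at rest, GDF3, with 33 reads, at least 10.2-fold higher and BMP8A 3.27-fold (1.74 to 6.60) higher, so that 2 of 8 were higher and 2 lower, beside 8.23% and 6.90% of all records. GDF3, unlisted at rest, had to be called higher. BMP8A, with 46 reads on day 4 and 13 at rest, passed the read minimum through day 4 alone and was favoured to be higher. INHBA, the other lower ligand, passed it through rest alone. The epithelium held 119 reads of BMP8A, and keratinocyte cornification genes summed to 719 CPM at rest, 535 CPM on day 2 and 1674 CPM on day 4. Their part in the BMP8A difference was not tested.

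Extracellular antagonists and modulators numbered 24 found of 34. In the growth-phase papilla 9 of 11 were higher than in the epithelium and 0 lower, beside 25.0% and 22.7% of all records. Of the 11, 3 were unlisted in the epithelium and passed the read minimum through the papilla alone. WFIKKN2, CHRDL1, CRIM1 and BMPER, with 4, 14, 10 and 2 reads in the epithelium, also reached 20 reads in the papilla alone. They were thus favoured to be higher there. Of those higher, WFIKKN2, a multidomain protease inhibitor known in mammals to bind myostatin and GDF11, was 522-fold (204 to 1919) higher, and LTBP1, which holds latent TGF-beta in the matrix, 67.7-fold (47.2 to 101). CHRDL1, a chordin-like BMP antagonist, was 33.0-fold (19.5 to 61.0) higher, and FSTL5, a follistatin-like gene, at least 20.05-fold. The median log2 ratio of the 11 was 2.96, or 3.23 with unlisted members at their bound, beside -0.05 for all records. Against the pulp 5 of 13 were higher and 3 lower in the papilla, beside 14.7% and 19.1% of all records. CHRDL1 was 58.6-fold (32.4 to 118) higher and WFIKKN2 416-fold (201 to 1036). NOG and BMPER, unlisted in the pulp, passed the read minimum through the papilla alone and so had to be higher. CHRDL1, WFIKKN2 and FSTL5, with 11, 7 and 4 reads in the pulp, also passed it through the papilla alone. SOSTDC1 and GREM1, with 14 and 6 reads in the papilla, passed it through the pulp alone and were favoured to be lower. The lower ones were LTBP1, at 487 CPM in the papilla against 1083 in the pulp, SOSTDC1 (4.12 against 18.6) and GREM1 (1.77 against 4.64).

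From rest to growth, 4 of 11 antagonists and modulators were higher in growth and 1 lower, beside 9.35% and 7.97% of all records (median log2 ratio 0.27, beside -0.02). WFIKKN2 was 7.38-fold (6.45 to 8.47) higher, NBL1, a BMP antagonist of the DAN family, 2.81-fold (2.35 to 3.39), and LTBP1 2.19-fold (2.01 to 2.39). CRIM1, a membrane protein that binds BMPs, was 2.38-fold (1.43 to 4.09) lower.

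In the follicles, 4 of 10 were lower than in the resting papilla on day 2 and 0 higher, beside 6.00% and 7.03% of all records (median log2 ratio -0.55, beside -0.06). On day 4 again 4 of 10 were lower and 0 higher, beside 6.90% and 8.23% (-0.68, beside -0.03). NOG and FSTL5 on day 2, and NOG and WFIKKN2 on day 4, passed the read minimum through the resting papilla alone. NOG on day 2 had to be lower, and the others were favoured to be lower. The list holds NOG but not NOG2, which had more reads. NOG2 did not differ from rest beyond counting error on day 2 (ratio 0.794, 0.625 to 1.01) or day 4 (0.907, 0.723 to 1.14). WFIKKN2, with 1702 reads in the growth-phase papilla, 247 at rest, 20 on day 2 and 7 on day 4, was 12.5-fold (7.90 to 20.8) lower on day 2 and 38.2-fold (18.3 to 96.0) lower on day 4 than at rest. CRIM1 was 2.26-fold (1.39 to 3.78) lower on day 2 and 2.76-fold (1.66 to 4.74) on day 4. CHRDL1 had 486 reads at rest, 361 on day 2 and 178 on day 4. It was within 2-fold of rest on day 2 and 2.96-fold (2.48 to 3.53) lower on day 4, and 2.17-fold (1.81 to 2.62) lower on day 4 than on day 2. The smooth muscle marker sums given above were likewise higher in both papilla libraries than in the follicles, and their part in the WFIKKN2 difference was not tested. Follistatin (FST), the classical activin antagonist, was looked up after its values were known and had at most 14 reads, in the pulp, so it could not be compared at this depth.

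**Figure D4:**
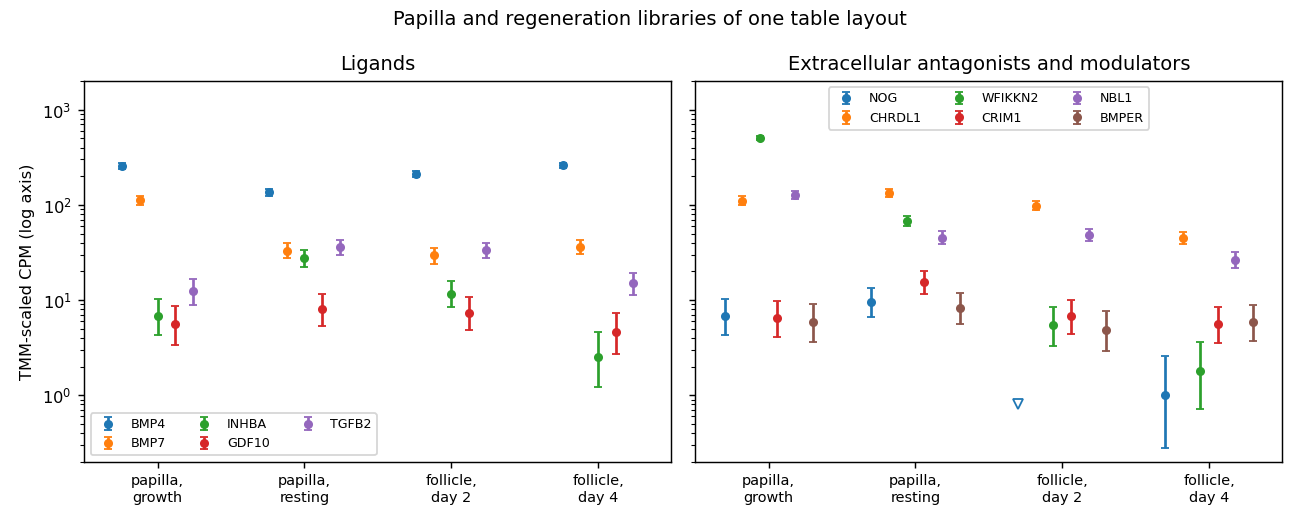
Levels of 5 ligands (left) and 6 extracellular antagonists (right) in the papilla and follicle libraries, in TMM-scaled CPM on a log axis. Points are single libraries, bars exact 95% Poisson intervals, and the open triangle the level of 3 reads for unlisted NOG. BMP4 stays within 136 to 259 CPM, while INHBA, NOG, CRIM1, CHRDL1 and WFIKKN2 lie lower on day 4 than at rest. NOG2 is not drawn and did not differ from rest beyond counting error on either day.

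Receptors and co-receptors were measured thinly, with 15 of 20 found and 4 to 8 with enough reads in a pair. BMPR1A and BMPR1B, the main type I receptors of BMP4, had at most 4 and 3 reads, and were looked up after their values were known. BAMBI (LOC428413), a decoy receptor that is itself induced by BMPs, had 244 reads in the growth-phase papilla, 329 in epithelium, 3453 in pulp, 434 in resting papilla, 650 on day 2 and 851 on day 4. It was 8.27-fold (7.26 to 9.46) lower in the growth-phase papilla than in the pulp and 7.53-fold (6.72 to 8.46) higher in the pulp than in the epithelium. RGMB, a BMP co-receptor, had 27 reads in the growth-phase papilla and 2 to 12 elsewhere. It passed the read minimum through the growth-phase papilla alone and was favoured to be higher there. It was 16.6-fold (4.16 to 144) higher there than in the epithelium, 15.4-fold (4.74 to 79.3) higher than in the pulp and 5.78-fold (2.20 to 19.2) higher than at rest. TGFBR1, a type I receptor for TGF-beta, was 2.33-fold (1.46 to 3.83) lower in growth than at rest. In the growth-phase papilla 2 of 7 receptors were higher and 1 lower than in the epithelium, where 25.0% and 22.7% of all records were. Against the pulp 1 of 8 was higher and 2 lower, where 14.7% and 19.1% of all records were, and these shares are close to those of the receptors. Against rest 1 of 5 was higher and 1 lower, beside 9.35% and 7.97%. Of the pairs among resting papilla and follicles, 1 of 5 differed between day 4 and day 2, beside 7.61% of all records. This was the activin receptor ACVR2A, 2.64-fold (1.33 to 5.61) higher on day 4, with 34 reads there and 12 on day 2. It too passed the read minimum only where it was higher. From rest, 0 of 4 were 2-fold apart on day 2 and 0 of 5 on day 4, beside 13.0% and 15.1% of all records. So few receptors cannot be told apart from those shares.

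Of 22 SMADs and their regulators, 17 were found. In growth against rest 0 of 9 were 2-fold apart, beside 17.3% of all records. In each pair with a follicle 1 of 10 was, beside 13.0% of all records on day 2 against rest, 15.1% on day 4 against rest and 7.61% on day 4 against day 2, so the SMAD list held about the share of all records. The genes were as follows. SMAD3, which carries activin and TGF-beta signals, was 2.97-fold (1.29 to 7.65) higher on day 2 than at rest, and the inhibitory SMAD7 2.15-fold (1.68 to 2.78) lower on day 4 than at rest. TGIF1, a repressor that binds SMAD2 and SMAD3, was 3.20-fold (1.34 to 8.79) higher on day 4 than on day 2. SMAD3 had 24 reads on day 2 and 8 at rest, and TGIF1 24 on day 4 and 7 on day 2. Both genes thus passed the read minimum only where they were higher. Against the pulp, 3 of 11 were higher in the growth-phase papilla and 3 lower, beside 14.7% and 19.1% of all records. The higher ones included the SMAD regulator TOB1, at 29.1 CPM in the papilla against 7.57 in the pulp, and the BMP effector SMAD1 at 4.67-fold (2.27 to 10.3). The lower ones included SMAD3, at 3.53 CPM against 12.7, and the BMP-inhibitory SMAD6 at 2.94-fold (2.09 to 4.21). SMAD1, with 11 reads in the pulp, and SMAD3, with 12 in the papilla, also passed the read minimum only where they were higher.

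Known BMP target genes, 14 found of 15, differed in both directions between libraries. Between growth and rest 0 of 12 were higher and 4 lower in growth, beside 9.35% and 7.97% of all records (median log2 ratio -0.76, beside -0.02), where BMP4 was 1.90-fold and BMP7 3.39-fold higher. The lower ones were the transcription factor genes MSX2 at 2.87-fold (1.85 to 4.57), GATA3 at 2.33-fold (1.70 to 3.24), ATOH8 at 2.27-fold (1.34 to 3.97) and DLX5 at 2.18-fold (1.43 to 3.38). MSX2 and GATA3 had 253 and 590 reads in the epithelium, and 5 of 7 epithelial markers were at least 2-fold lower in growth than at rest, as given above, among them CLDN1 at 19.4 against 108 CPM and CDH1 at 24.4 against 68.4 CPM. Their part in this difference was not tested.

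On day 2, 1 of 13 targets was higher than at rest and 2 lower, beside 7.03% and 6.00% of all records. MSX1, a homeobox gene, was 3.66-fold (1.79 to 8.26) higher, ID2, which encodes an inhibitor of basic helix-loop-helix factors, 2.14-fold (2.03 to 2.26) lower and ATOH8 3.22-fold (1.81 to 6.05) lower. On day 4, 1 of 13 was higher and 4 lower, beside 8.23% and 6.90% of all records, with MSX1 4.99-fold (2.52 to 11.0) higher, ID4 2.48-fold (2.05 to 3.01) lower and ATOH8 13.8-fold (5.07 to 52.6) lower. MSX1, with 10 reads at rest, passed the read minimum through the follicle alone on each day and was favoured to be higher. ATOH8 on each day, and GATA2, which was also lower on day 4, passed it through rest alone and were favoured to be lower. ID1 was 2.34-fold (1.87 to 2.94) higher on day 4 than on day 2. Its reads were 224 in growth-phase papilla, 48 in epithelium, 584 in pulp, 164 at rest, 112 on day 2 and 281 on day 4.

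Across the growth-phase tissues, ID4 was 13.1-fold (9.46 to 18.4) higher in the papilla than in the epithelium and 12.0-fold (9.20 to 16.0) higher than in the pulp. In the papilla MSX2 was 7.36-fold (4.97 to 11.3) below its epithelial level and 9.58-fold (3.65 to 31.8) above its pulp level. Of the epithelial markers, 6 of 6 were also at least 2-fold higher in the papilla than in the pulp (median log2 ratio 1.97), and their part was not tested. In all, papilla over epithelium gave 5 of 13 targets higher and 3 lower, beside 25.0% and 22.7% of all records. Papilla over pulp gave 2 of 13 higher and 5 lower, beside 14.7% and 19.1%, and pulp over epithelium 6 of 13 higher and 3 lower, beside 26.7% and 20.4%. The 3 lower against the epithelium and the 2 higher against the pulp were thus near the share of all records.

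Of 11 activin and TGF-beta target genes, 10 were found. In the growth-phase papilla 6 of 6 were higher than in the epithelium, beside 25.0% of all records, and 4 of 6 higher than in the pulp, beside 14.7%. In the pulp 4 of 5 were higher than in the epithelium, beside 26.7%. In papilla over epithelium 6 of 6 mesenchymal markers were also higher in the papilla (median log2 ratio 5.75), with the sums of 5071 and 97.8 CPM given above. In pulp over epithelium 6 of 6 markers were also higher (5.15). In papilla over pulp 2 of 6 mesenchymal markers were higher and 0 lower, with a median log2 ratio of 0.69. The targets had 4 of 6 higher (1.56), and the median of all records was -0.09. Smooth muscle markers were higher in the papilla in 5 of 5 in that pair (6.15). The part of these markers was not tested. Of the target genes in the growth-phase papilla, fibronectin (FN1) was 24.8-fold (20.3 to 30.8) and periostin (POSTN) 40.5-fold (13.5 to 199.7) higher than in the epithelium. COL1A1, which is also a mesenchymal marker here, was at least 38.0-fold higher. Between growth and rest, where INHBA was 4.06-fold lower in growth, CTGF, a matricellular gene induced by TGF-beta, was 2.24-fold (2.03 to 2.46) lower and PMEPA1, a feedback inhibitor, 2.14-fold (1.56 to 2.97) higher, which was 1 of 6 each way beside 7.97% and 9.35% of all records. In the follicles against rest 0 of 6 were 2-fold apart on day 2, beside 13.0% of all records, and 1 of 6 on day 4, beside 15.1%: SMAD7, which also stands in the SMAD list.

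**Figure D5:**
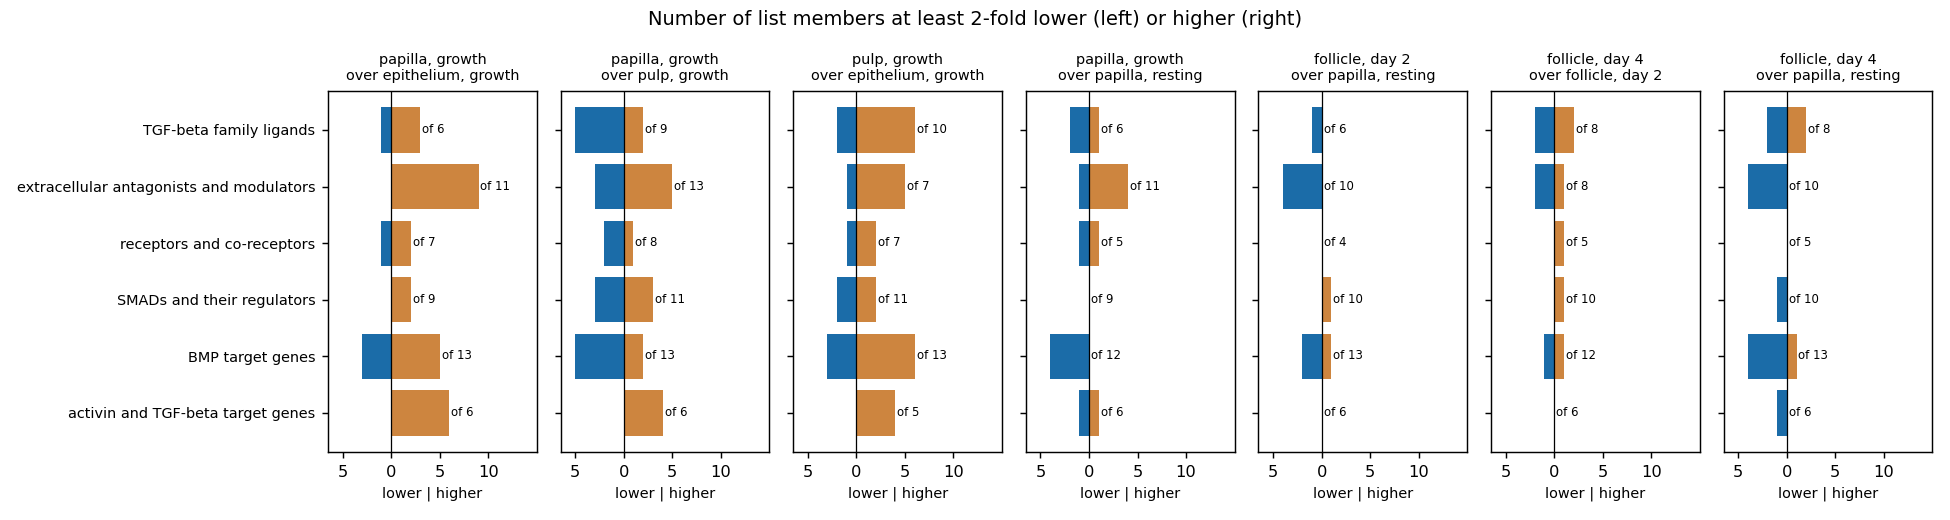
Number of genes of each pathway list (rows) at least 2-fold higher (orange, right) or lower (blue, left) in each pair of libraries (panels), with the number that had enough reads. The antagonist bars point right in growth-phase papilla over epithelium (9 of 11, beside 25.0% of all records). They point left in both follicles over resting papilla (4 of 10 each, beside 6.00% on day 2 and 6.90% on day 4). Members unlisted in 1 library, 3 of the 11 in the first pair and NOG on day 2, could only be called that way. NOG2 is not in the list and did not differ from rest beyond counting error on either day. SMADs and their regulators reach 3 of 11 in each direction in growth-phase papilla over pulp, beside 14.7% of all records higher and 19.1% lower. In the pairs with a follicle they reach at most 1 of 10, about the share of all records (7.61% to 15.1% apart).

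The records whose pattern over the 6 libraries lay closest to BMP4, GDF10, INHBA and NOG were found by the root-mean-square difference of centred log2 levels, among the 2495 to 2496 named records that reached 200 reads in some library. BMP4 lay closest to CLEC3B, a plasminogen-binding lectin (0.385), SSR3, a subunit of the translocon-associated complex (0.456), and the collagen gene COL3A1 (0.481). GDF10 lay closest to the cytokine-like gene CYTL1 (0.403), L3HYPDH (0.508) and the guidance gene NTN1 (0.522). CYTL1 had 750 reads in the pulp and 2 to 14 elsewhere. INHBA lay farther from its nearest, EDIL3 (0.695), MAOA (0.708) and SALL1 (0.735). NOG lay closest to RRAD, a small GTPase (0.465), KLHDC8B (0.639) and ARL8BL (0.669). These levels had 1 CPM added before the log. NOG had at most 35 reads and was unlisted in the epithelium, the pulp and the day 2 follicle. Its pattern there was set by the added 1, so this likeness is a weak one. RRAD had 421 reads in the growth-phase papilla, 621 in resting papilla and 45 to 143 in the other 4 libraries.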

How the data were processed

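Total RNA was extracted with Trizol and sequenced by standard Illumina protocols, per the labels. The authors deposited whole-number counts per RefSeq transcript record, listing no value under 2. The column the authors headed TPM held no division by length: it was the deposited RPM, per 1000000 reads of a total above the listed sum, and the total was read back from records of 500 or more reads. Per the submitters' processing notes the build was mm10, which is a mouse genome, while all records name chicken transcripts. Aligner, counter and strandedness were not given in the sources used here. Both the epithelium and the pulp table had another text layout and more reads than the other 4.

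Symbols came from the tables (4821 of 10964 records) or from a RefSeq gene table of GRCg7b through the gene identifier (5008) or accession (10), and 1125 had none. Scaling used trimmed mean of M values (TMM) factors from edgeR 4.0.16 in R 4.3.3 on those totals (growth-phase papilla 0.997, epithelium 0.688, pulp 1.02, resting papilla 1.09, day 2 1.12, day 4 1.17). Folds are ratios of scaled counts with exact conditional binomial (Clopper-Pearson) 95% intervals, and levels have exact Poisson 95% intervals. No test was made, since each group had 1 library. Calls used a pseudocount of 1 CPM. The steps were tested on simulated counts.

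The genes and lists were chosen with earlier results of these data known. All kept genes are named, and of each list up to 4 members per pair by absolute ratio among those past 2-fold, plus the 3 closest records by pattern. NOG2, the ratios to BMP4, FST, BMPR1A and BMPR1B were added after values were seen. So were BMPER, LTBP1, SOSTDC1 and GREM1 in growth-phase papilla over pulp. Alternatives were DESeq2 1.42.0 median-of-ratios, upper-quartile and no scaling, TMM leaving out the 100 records with most reads, a pseudocount of 0.1 or 5, no read minimum, a minimum of 200 reads, and summing the records of a symbol. TMM over the 4 libraries of 1 layout was added after seeing the data. Further computation used Python 3.11.15 with numpy 2.4.6, scipy 1.17.1, pandas 2.3.3 and matplotlib 3.10.9.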

Additional observations from a re-analysis of the deposited data

How the results depend on the processing

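Of 34 log2 ratios of single genes, 33 kept their sign under every alternative run for them, and 0 of the 20 past 2-fold changed sign. Much of this was set in advance. A changed pseudocount or read minimum cannot turn a sign, and the shifts from scaling were too small to turn a ratio past 2-fold. The 1 ratio that changed sign was BMP7 in pulp over epithelium, 0.09 and -0.01 with upper-quartile scaling. Of 134 alternative counts of genes past 2-fold, 125 were within 1.5 times the reported count. With a minimum of 200 reads, which tests fewer genes, the growth-phase papilla had 2 genes higher than the epithelium in place of 4 and 1 higher than the pulp in place of 2. The same minimum left 0 genes lower in growth over rest, in day 2 over rest, in day 4 over day 2 and in day 4 over rest, in place of 1, 2, 1 and 2. A pseudocount of 5 left 1 gene lower in day 2 over rest, no read minimum made 1 higher in day 4 over day 2 in place of 0, and library totals only made 1 higher in day 4 over rest in place of 0. These last moves came from genes near the 2-fold line or with few reads. In day 2 over rest INHBA went from a log2 ratio of -1.16 to -0.96. In day 4 over day 2 the gene let in was NOG, with 4 reads on day 4 and unlisted on day 2. In day 4 over rest BMP4 went from 0.93 to 1.03. The epithelium depended most on scaling: with library totals only the median of all records moved from -0.05 to 0.45 in growth-phase papilla over epithelium. Genes with few reads (BMP2, NOG, RGMB) have wide intervals. No paired analysis was possible because each group has 1 library, and no library could be left out of a pair.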
